A study of Mus musculus with 4 samples.

Results

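The immediate early genes of the Egr, Nr4a and Ier families, with the phosphatase gene Dusp1, were followed in sorted pancreatic β cells of mouse neonates at day 13. They were chosen by symbol from the deposited gene table: Egr1, Egr2, Egr3, Egr4, Nr4a1, Nr4a2, Nr4a3, Ier2, Ier3 and Dusp1, 10 of its 51912 genes. All 10 passed the filter on low counts and were among the 16517 genes tested. The control group is given as Robo1+/+; Robo2+/+ and the Robo mutant group as Robo1delta/delta; Robo2flx/flx, with 2 libraries each. All 4 libraries, controls included, carry Rosa26-lsl-H2B-mCherry/+ and Ucn3-Cre/+, so that nuclear mCherry marks cells in which the Cre of the maturing β cell gene Ucn3 was active, and mCherry was the marker of the sort. The Robo1 allele is given as deleted, so it is lost in other cells too, whereas loss of Robo2 needs the Cre. The labels do not say whether a library came from 1 animal or several, nor whether the libraries are separate animals, so p-values refer to the spread between libraries, and that spread may be technical. Values of all 4 libraries are given in the order control 1, control 2, mutant 1, mutant 2, called library order below.

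Immediate early genes are transcribed soon after a cell is stimulated, without the need for new protein. Kinases of the ERK cascade act through serum response factor and its ternary complex partners, and cAMP and calcium signals act through CREB, on response elements that lie close to the start sites of these genes. In β cells, glucose and depolarization are known to induce Egr1 and Nr4a1, and in many tissues enzymatic digestion and cell sorting induce the same genes. The Egr proteins are zinc finger transcription factors and the Nr4a proteins are orphan nuclear receptors. Dusp1 is a phosphatase that switches off the MAP kinases that induced it.

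Stretches upstream of start sites are shown for genes that held letters matching such response elements there, most of them only a short core. Windows were at hand in RefSeq (build GRCm38.p6) for 7 of the 10 genes: Egr2, Egr4, Nr4a1, Nr4a2, Nr4a3, Ier3 and Dusp1. Capitals mark TGACG, the core of the cAMP response element, read on either strand (CGTCA where it lies on the other strand). In Dusp1 they also mark the full element TGACGTCA, and in Egr2 the serum response element (CArG box), which is the middle run of capitals. Each is written 5′ to 3′ on the strand of its gene. The Nr4a1 stretch is chr15:101266596-101266815, plus strand, and the Nr4a2 stretch is chr2:57124104-57124213, minus strand. The Nr4a3 stretch is chr4:48045065-48045104, plus strand, and the Dusp1 stretch is chr17:26508593-26508672, minus strand. The Egr2 stretch is chr10:67537748-67537828, plus strand, and the Egr4 stretch is chr6:85513688-85513776, minus strand. None of these 6 stretches touches an exon annotated in GENCODE M21, on the same build. The Nr4a1, Egr2 and Dusp1 stretches lie within the annotated span of their own gene, before an internal RefSeq start.
Nr4a1: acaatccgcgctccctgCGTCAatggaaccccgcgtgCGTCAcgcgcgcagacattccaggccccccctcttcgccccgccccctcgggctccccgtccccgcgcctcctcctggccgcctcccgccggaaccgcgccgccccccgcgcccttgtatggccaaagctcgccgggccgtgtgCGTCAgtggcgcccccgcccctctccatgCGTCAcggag
Nr4a2: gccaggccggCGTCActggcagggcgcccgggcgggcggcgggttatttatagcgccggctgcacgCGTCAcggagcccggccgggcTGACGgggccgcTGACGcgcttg
Nr4a3: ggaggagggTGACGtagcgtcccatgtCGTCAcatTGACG
Dusp1: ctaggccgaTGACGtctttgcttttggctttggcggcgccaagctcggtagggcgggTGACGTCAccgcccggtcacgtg
Egr2: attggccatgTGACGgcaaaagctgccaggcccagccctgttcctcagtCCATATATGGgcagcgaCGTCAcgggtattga
Egr4: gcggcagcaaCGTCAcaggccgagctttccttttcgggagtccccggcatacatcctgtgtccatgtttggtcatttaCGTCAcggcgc

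In the 250 bases before the start, each of the 3 Nr4a genes held 4 TGACG cores. In Nr4a1 they began 233, 213, 69 and 40 bases before the RefSeq start, in Nr4a2 200, 144, 123 and 111, and in Nr4a3 231, 213, 205 and 147, the last of which lies outside the stretch shown. Both strands were searched, and the core is part of the full element TGACGTCA, so the 2 searches overlap. Of all 32851 RefSeq windows of the same length, several of which can belong to 1 gene, 17.8% held at least 1 core and 0.137% held 4 or more. Dusp1 held the full element 143 bases before the start, as did 1.55% of all windows, and Egr2 held a CArG box 72 bases before the start of its shown window, as did 1.47%. Nr4a1 also held the Egr binding motif GCGGGGGCG, found in 2.57% of all windows, on the other strand 60 bases before the start. Of the other Egr2 windows, the most upstream held no match, and the next held a CArG box but no core. In Ier3 none of the motifs searched was found in the window, which says nothing of sites elsewhere. The other motifs searched, the Egr motif GCGTGGGCG and the Nr4a motif AAAGGTCA, had no match in the windows of these genes. A match is a run of letters and not a measured site.

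**Figure D1:**
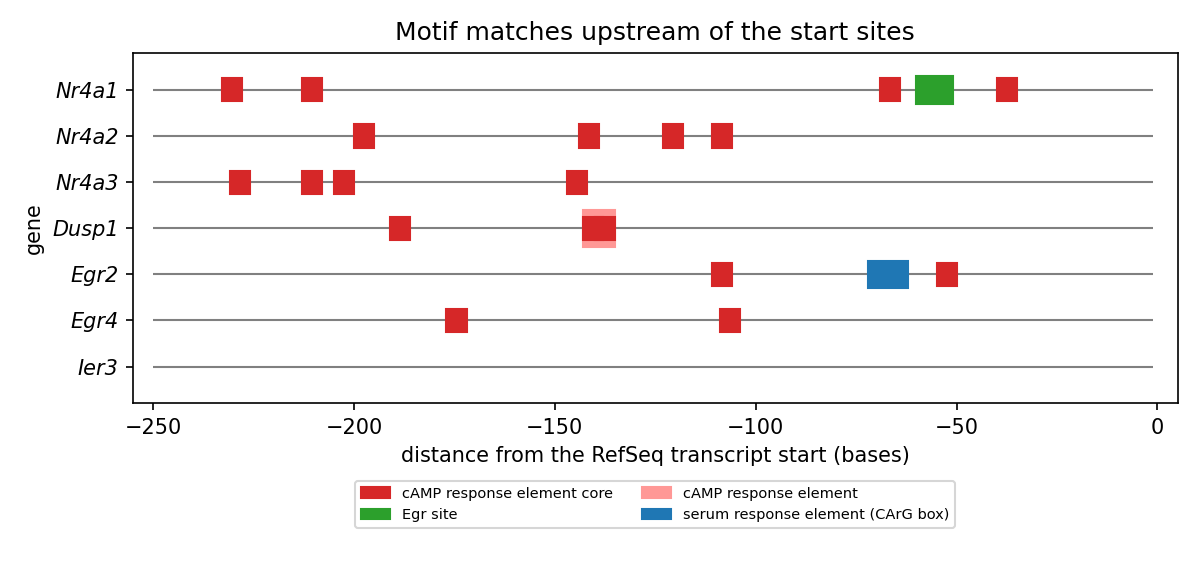
Motif matches in the 250 bases upstream of the RefSeq start, 1 row per gene, with distance from the start in bases on the x axis. Red boxes are TGACG cores, pink the full cAMP response element, blue the CArG box and green the Egr motif. The 3 Nr4a rows carry 4 red boxes each and the Ier3 row none.

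The libraries held 38886129 to 49593712 counts, and control 2 was the smallest. Genes with a count above 0 numbered 19919, 20918, 17751 and 17937 in library order, so control 2 had the most. Robo1 was at 48.5 and 104 CPM (counts scaled to a common library total) in control 1 and 2 and at 22.3 and 21.02 CPM in mutant 1 and 2, and Robo2 at 75.3, 118, 32.7 and 25.6 CPM in library order. Transcripts of β cells were abundant everywhere, with Ins2 at 99747 to 153155 CPM. Transcripts listed as markers of other pancreatic cells were found in every library, and whether β cells make some of them was not tested. The 10 acinar markers summed to 3898, 676, 2698 and 39307 CPM in library order, led by Amy2a5, with none at 0 in every library. The 8 alpha cell markers, led by Gcg, summed to 24022, 11980, 19473 and 24252 CPM, and the 8 immune markers, led by Csf1r, to 33.3, 8.17, 40.8 and 38.0 CPM. The 8 stromal markers, led by Col3a1, summed to 2272, 676, 934 and 12.9 CPM. The 6 delta cell markers, led by Sst, summed to 2152, 2008, 3728 and 2262 CPM, and the 3 PP cell markers, led by Pyy, to 6437, 4338, 7185 and 5027 CPM. The 5 duct markers (Krt7 leading at 387 to 432 CPM, Cftr at 0 throughout) summed to 442, 526, 457 and 453 CPM. The 7 endothelial markers, led by Esam, summed to 4.14, 16.6, 3.74 and 5.81 CPM. The 5 red blood cell markers summed to at most 0.368 CPM (Alas2 leading, Hbb-bt at 0 throughout). In bulk RNA, fewer cells of a type and less RNA per cell cannot be told apart.

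All 10 genes had a higher mean in the Robo mutant libraries, a direction that 48.7% of all genes tested had. Their means differed by 1.39-fold (Egr4) to 3.86-fold (Nr4a1), and the median log2 change was 0.96, where that of all genes tested was -0.013. In edgeR's quasi-likelihood test 0 of the 10 had an adjusted p under 0.05, as did 0% of the 16517 genes tested. Robo1 and Robo2, both lower in the mutant libraries, each had an adjusted p of 0.680 in edgeR. Their adjusted p in DESeq2 was 0.00186 and 2.0e-05. DESeq2 also called 0 of the 10, where it called 0.309% of all genes tested higher and 0.605% lower. With limma 0 of the 10 were called, and 0 of all genes tested. At an unadjusted p under 0.05 there were 2 of the 10, Nr4a1 and Nr4a2, both higher in the mutant, where 1.99% of all genes tested were higher at that threshold. In 5 genes (Egr1, Nr4a1, Nr4a2, Ier2 and Dusp1) both mutant libraries lay above both controls, a pattern that 16.1% of all genes tested had. In the other 5 the genotypes overlapped.

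**Figure D2:**
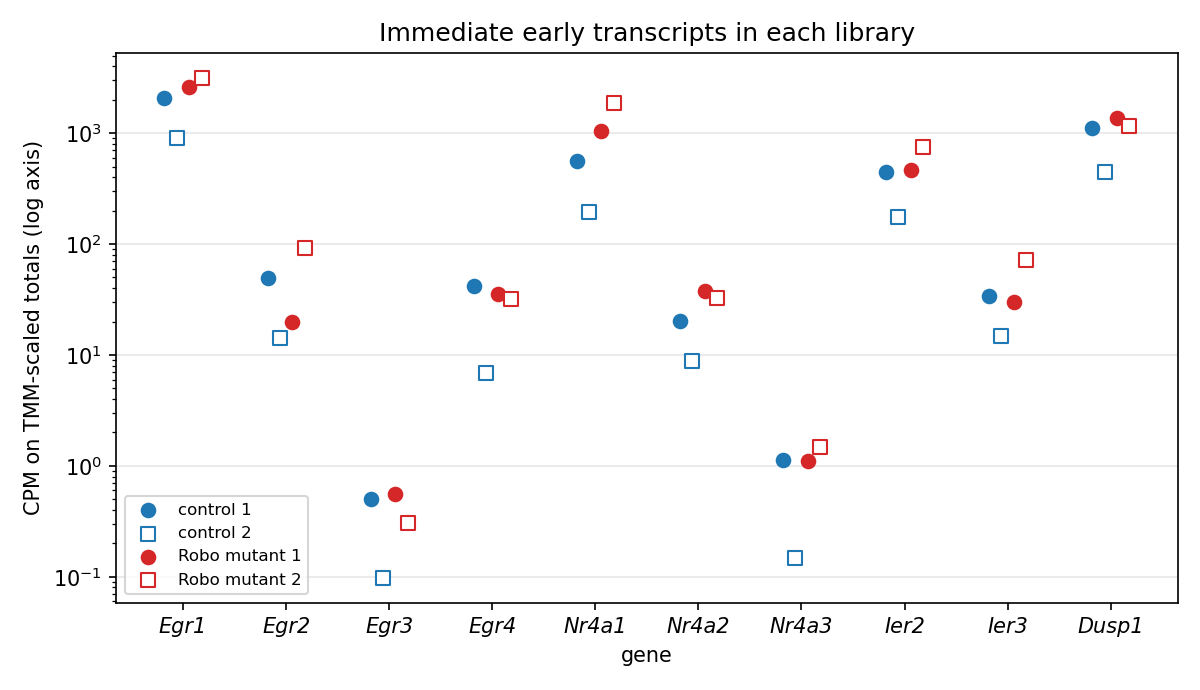
CPM of the 10 genes (log axis) in each library, blue for control and red for Robo mutant, with circles for library 1 and open squares for library 2. Control 2 is the lowest point for every gene, and in Egr2, Egr3, Egr4, Nr4a3 and Ier3 control 1 lies at or above at least 1 mutant library.

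The 2 control libraries did not agree on these genes. Control 2 was the lowest of the 4 libraries in 10 of 10 genes, and in 17.0% of all genes tested. Control 1 stood above it by 2.28-fold (Ier3) to 7.66-fold (Nr4a3), and 8.52% of all genes tested had a ratio of 2.28 or more between these libraries. The median log2 ratio over the 10 genes was 1.42 for control 1 over control 2, against 0.10 for mutant 1 over control 1 and 0.63 for mutant 2 over control 1. Without control 2, the median log2 change fell from 0.96 to 0.33 and 8 of the 10 genes were higher in the mutant. Without control 1 the median was 1.98 and 10 of 10 were higher, which follows from control 2 being their lowest library. Control 2 also had the lowest sums of acinar, alpha, delta, PP cell and immune markers and the highest sums of duct and endothelial markers. It was the lowest library in 9 of 10 acinar, 6 of 8 alpha and 6 of 8 immune markers. For delta and PP cell markers this held in 3 of 6 and 2 of 3. Except Krt19 and Esam, highest in mutant 2, all duct and endothelial markers with counts were highest in control 2. The part of those cells in the difference was not tested.

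**Figure D3:**
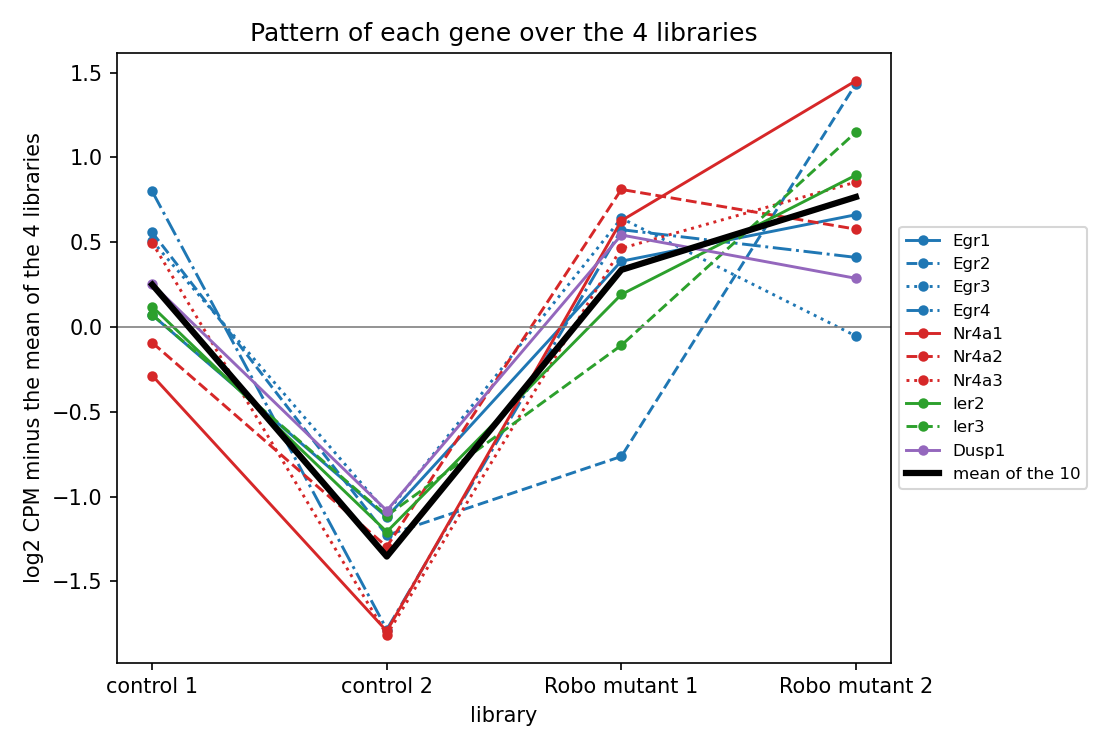
Log2 CPM of each gene minus its mean over the 4 libraries, with lines joining the points of 1 gene and the thick black line for the mean of the 10. The mean lies at -1.35 in control 2, 0.25 in control 1, 0.34 in mutant 1 and 0.77 in mutant 2.

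Among the Egr genes, Egr1 was by far the most abundant. Egr1 (ENSMUSG00000038418, chromosome 18, 34859823 to 34864984, plus strand, GRCm38), a zinc finger factor known to be induced in β cells, was at 2086 and 913 CPM in control 1 and 2 and at 2598 and 3142 CPM in mutant 1 and 2. Both mutant libraries lay above both controls, but mutant 1 exceeded control 1 by only 1.25-fold, less than the 2.28-fold between the controls. Its mean was 1499 ± 829 CPM in control and 2870 ± 384 CPM in mutant cells (SD, n = 2 each), and the log2 change was 0.94 ± 0.43 (SE, n = 2 each; edgeR, unadjusted p = 0.0853, adjusted p = 0.887). Without control 2 the change of Egr1 was 0.46, and without control 1 it was 1.65. By level it ranked 17 and 57 among all genes of the table in the controls and 14 and 26 in the mutants.

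Egr2 (chromosome 10, 67535475 to 67542188, plus strand), known for its role in hindbrain patterning and in myelination, did not follow genotype. It was at 49.7 and 14.3 CPM in control 1 and 2 and at 19.8 and 91.3 CPM in mutant 1 and 2. Mutant 2 was the highest library and mutant 1 lay below control 1, so that the mutant libraries differed from each other by 4.605-fold. Its log2 change was 0.79 ± 0.93 (SE, n = 2 each) and turned to -0.69 without mutant 2. Mutant 2 is the library with the most acinar transcripts, and their part in the Egr2 level was not tested.

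Egr4 (chromosome 6, 85511121 to 85513589, minus strand), a zinc finger factor best known from neurons, was at 41.7, 6.87, 35.6 and 31.8 CPM in library order. Control 1 was the highest library and control 2 the lowest, and both mutants lay between them. The log2 change was 0.47 ± 0.83 (SE, n = 2 each), and -0.30 without control 2. Egr3 (chromosome 14, 70077203 to 70082614, plus strand), needed for muscle spindles, was close to absent, with 24, 4, 28 and 14 counts in the same order. The exact Poisson 95% intervals of these counts, which cover counting error only, ran from 15.4 to 35.7, 1.09 to 10.2, 18.6 to 40.5 and 7.65 to 23.5. Only control 2 is set apart by counting error from control 1 and mutant 1, and the mutant libraries overlap control 1. Without control 2 the log2 change of Egr3 went from 0.53 to -0.21.

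The Nr4a genes included the largest difference of the 10. Nr4a1 (ENSMUSG00000023034, chromosome 15, 101254269 to 101274795, plus strand), which encodes the nuclear receptor Nur77, was at 556 and 196 CPM in control 1 and 2 and at 1047 and 1856 CPM in mutant 1 and 2. The groups did not overlap, and mutant 1 and mutant 2 exceeded the higher control by 1.88-fold and 3.34-fold. The mean was 376 ± 255 CPM in control and 1451 ± 572 CPM in mutant cells (SD, n = 2 each), and the log2 change was 1.95 ± 0.60 (SE, n = 2 each; edgeR, unadjusted p = 0.0263, adjusted p = 0.696). DESeq2 gave an adjusted p of 0.391. The change was positive without each library in turn, from 1.39 without control 2 to 2.89 without control 1. Its rank by level was 135 and 666 in the controls, 54 and 35 in the mutants.

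Nr4a2 (chromosome 2, 57106830 to 57124003, minus strand), which encodes Nurr1, a factor of midbrain dopamine neurons, was at 20.3 and 8.76 CPM in control 1 and 2 and at 38.1 and 32.4 CPM in mutant 1 and 2. The groups did not overlap, and the mutant libraries lay closer together than the controls. The log2 change was 1.28 ± 0.45 (SE, n = 2 each; edgeR, unadjusted p = 0.0407, adjusted p = 0.786), with 0.80 without control 2. Nr4a3 (chromosome 4, 48045153 to 48086447, plus strand), which encodes NOR1, was low, with 54, 6, 55 and 67 counts in library order. Control 2 alone stood low, with an exact Poisson 95% interval of 2.20 to 13.1 counts, while the intervals of the other 3 libraries overlapped. Without control 2 the log2 change of Nr4a3 went from 1.01 to 0.19.

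Ier2 (chromosome 8, 84661331 to 84662852, minus strand), which encodes a nuclear protein induced by growth factors, stood at 441 and 176 CPM in control 1 and 2 and at 464 and 756 CPM in mutant 1 and 2. The groups did not overlap, although mutant 1 exceeded control 1 by only 1.05-fold. Its log2 change was 0.98 ± 0.52 (SE, n = 2 each; edgeR, adjusted p = 0.917), and 0.47 without control 2. Ier3 (chromosome 17, 35821684 to 35822923, plus strand), which modulates cell survival and ERK signalling, was at 33.8, 14.8, 29.8 and 71.5 CPM in library order. Mutant 2 was highest and mutant 1 lay below control 1. The log2 change was 1.06 ± 0.59 (SE, n = 2 each), and 0.30 without mutant 2, the acinar-rich library.

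Dusp1 (chromosome 17, 26505590 to 26562128, minus strand) was at 1122 and 444 CPM in control 1 and 2 and at 1371 and 1149 CPM in mutant 1 and 2. Control 1 and mutant 2 differed by only 1.02-fold, and control 2 stood apart from the other 3 libraries. The log2 change was 0.69 ± 0.47 (SE, n = 2 each; edgeR, adjusted p = 0.954), and 0.17 without control 2. The annotated Dusp1 gene shares 11 exonic bases with Ergic1 on the other strand, and the libraries do not mark strand. The other 9 genes overlap no annotated gene.

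**Figure D4:**
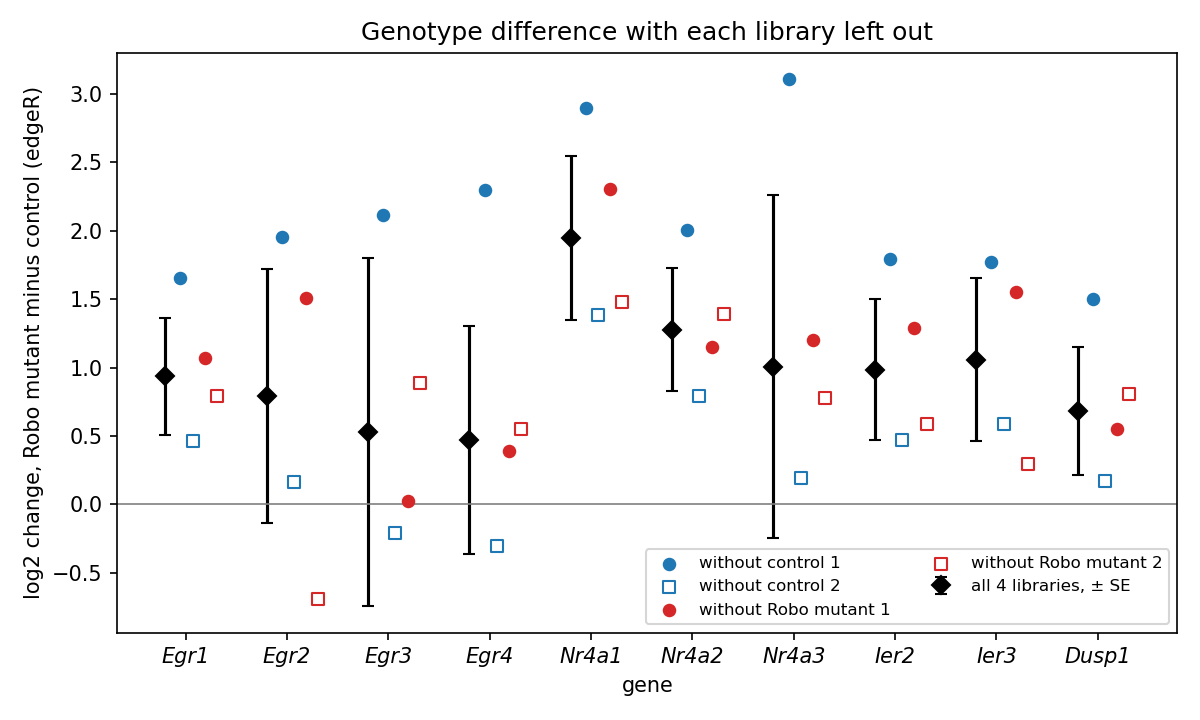
Log2 change of each gene, Robo mutant minus control, with all 4 libraries (black, bars ± SE) and with each library left out. Open blue squares, without control 2, lie below the black diamonds for all 10 genes, and filled blue circles, without control 1, lie above them.

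Levels of different genes were compared per kilobase of merged annotated exons. On that scale (CPM per kilobase, mean of 4 libraries) Egr1 led at 487, followed by Dusp1 at 309, Ier2 at 302 and Nr4a1 at 260. The ranges of Dusp1 (134 to 414), Ier2 (116 to 497) and Nr4a1 (55.7 to 529) overlapped, so their order is not separated by the spread over libraries. Ier3 followed at 33.1, Egr4 at 13.5, Egr2 at 12.9 and Nr4a2 at 6.13, again with overlapping ranges between neighbours, and Nr4a3 at 0.161 and Egr3 at 0.0833 closed the order, also with overlapping ranges. Egr1 was the highest of the 10 in every library, although its range (204 to 701) overlapped that of Dusp1. Egr2 was above Egr4 in control 2 and mutant 2 and below it in control 1 and mutant 1.

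Ratios between genes were also taken within each library. Per length, Nr4a1 was at 34.1% and 27.4% of Egr1 in control 1 and 2 and at 51.5% and 75.5% in mutant 1 and 2. The mutant ratios were both above the control ratios, and control 2 was close to control 1 on this measure. Nr4a1 had the largest change of the 10 genes, and Egr1 shared the low level in control 2. Both features therefore follow in part from the choice of this pair. Ier2 kept to 52.6% to 70.9% of Egr1 over the 4 libraries, and Dusp1 to 65.9% to 72.8% in 3 libraries and 49.5% in mutant 2. Egr2 was at 3.14%, 2.07%, 1.01% and 3.83% of Egr1 in library order. Nr4a2 was at 3.157%, 3.87% and 3.14% of Nr4a1 in control 1, control 2 and mutant 1, and at 1.51% in mutant 2. The genotypes overlapped in the ratios of Egr3 and Egr4 to Egr1, Nr4a3 to Nr4a1 and Ier3 to Ier2. No test was run on these ratios.

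Most genes of 3 further lists, chosen as immediate early or related genes, were also higher in the mutant libraries. Their induction was not measured here. Of 8 AP-1 genes, those of the Fos and Jun families and Atf3, 8 were higher with a median log2 change of 0.96. In 7 of them both mutant libraries lay above both controls. Of all genes tested 48.7% were higher, and in 16.1% both mutant libraries lay above both controls. Of 11 further Ier and Dusp genes 10 were higher (median 1.11), and of 30 other immediate early genes 27 were higher (median 1.04) and 3 lower. Both mutant libraries lay above both controls in 7 of the 11 and in 18 of the 30. In edgeR 0 of these 49 genes had an adjusted p under 0.05. At an unadjusted p under 0.05 there were 2 AP-1 genes and 4 Ier and Dusp genes, all higher, and of the other immediate early genes 5 higher and 1 lower. Of all genes tested, 1.99% were higher and 4.21% lower at that threshold. DESeq2 called 7 of them, all higher, where 0.309% of all genes tested were called higher. Without control 2 the medians of the 3 lists were 0.49, 0.76 and 0.60, and without mutant 2, the acinar-rich library, they were 0.79, 0.55 and 0.52. Control 2 was the lowest library in 7 of 8, 7 of 11 and 25 of 30 genes.

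Within these lists some genes differed from the Egr and Nr4a pattern in their controls. Dusp6, a phosphatase that acts on ERK, was at 18.4 and 21.3 CPM in control 1 and 2 and at 40.4 and 48.7 CPM in mutant 1 and 2, with a log2 change of 1.16 ± 0.20 (SE, n = 2 each; edgeR, unadjusted p = 0.0028, adjusted p = 0.680). Dusp4, another MAP kinase phosphatase gene, was at 12.2, 11.95, 26.0 and 41.7 CPM in library order. Fosl2 was at 6.89, 5.01, 21.7 and 22.8 CPM. In these 3 genes the controls lay close together and the mutants apart from them. Dusp5 was at 176, 101, 232 and 366 CPM, Dusp8 at 17.4, 13.0, 30.03 and 41.1 CPM and Atf3, a stress-induced AP-1 family gene, at 30.7, 21.2, 52.0 and 92.5 CPM. The kinase gene Plk2 (log2 change 1.32), Tiparp (1.24) and Trib1 (1.15) were higher in both mutant libraries, and Cyr61, a matrix protein gene induced through serum response factor and YAP, was lower in both (-0.58).

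Genes that act upstream lay on both sides. Of 12 kinases of the ERK cascade and its effector kinases 4 were higher and 8 lower, with a median log2 change of -0.066. The effector kinase genes Rps6ka3, at 11.3, 7.39, 14.2 and 12.5 CPM in library order, and Rps6ka5, at 9.23, 17.3, 14.0 and 25.05 CPM, had the largest log2 changes of the 4 of smallest p (0.51 and 0.56). Araf (-0.22) and Mapk3, which encodes ERK1 (-0.12), were the other two. Of 6 genes of serum response factor, its ternary complex factors and coactivators 4 were higher (median 0.091). Srf itself was at 23.4, 15.1, 25.4 and 38.3 CPM, with control 2 lowest as in the Egr genes. Of 8 genes of CREB factors and coactivators 6 were higher (median 0.14). Creb1 was at 42.8 and 41.9 CPM in control 1 and 2 and at 26.0 and 23.8 CPM in mutant 1 and 2, a log2 change of -0.77 ± 0.16 (SE, n = 2 each; edgeR, unadjusted p = 0.0066, adjusted p = 0.680). Crem, whose inducible product represses cAMP targets, was at 16.0, 18.1, 23.1 and 37.8 CPM, and the coactivator gene Crebbp at 45.7, 41.1, 57.1 and 58.1 CPM. In these 3 lists 0 genes passed in edgeR and 0 in DESeq2, and at an unadjusted p under 0.05 edgeR gave 2 higher and 1 lower, all 3 among the CREB genes, where 1.99% and 4.21% of all genes tested were higher and lower at that threshold.

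Partners of the proteins were also measured. Nab2, a corepressor of Egr proteins that is itself an Egr target, was at 4.07 and 9.77 CPM in control 1 and 2 and at 16.1 and 17.8 CPM in mutant 1 and 2, with a log2 change of 1.29 ± 0.50 (SE, n = 2 each; edgeR, unadjusted p = 0.0538, adjusted p = 0.820). Both mutants lay above both controls, and control 2 was above control 1, opposite to the Egr genes. Nab1 had a log2 change of 0.18, and the retinoid receptor partners of the Nr4a proteins lay on both sides, with Rxra at 0.26 and Rxrb at -0.31. Rxrg did not pass the filter on low counts.

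Heat shock genes, which digestion of tissue also induces, went in both directions. Whether digestion had a part in the levels of any of these genes was not tested. Of 10 genes 7 were higher and 3 lower, with a median log2 change of 0.22. Both mutant libraries lay above both controls in 4 and below them in 2, as in 16.1% and 20.4% of all genes tested. Hspa1a was at 63.7 and 56.3 CPM in control 1 and 2 and at 23.6 and 9.63 CPM in mutant 1 and 2. Hspa1b was at 50.1, 54.2, 24.6 and 19.0 CPM in the same order. Both were lower in both mutant libraries, as were 20.4% of all genes tested, and their controls lay close together. DESeq2 called both lower (adjusted p = 0.0101 and 0.0010), where 0.605% of all genes tested were called lower, and edgeR called neither (adjusted p = 0.680 for both). Their coding sequences are nearly alike, so the single values are uncertain. Hspa8 (0.42) and Hsp90aa1 (0.40), further chaperone genes, were higher in both mutant libraries.

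**Figure D5:**
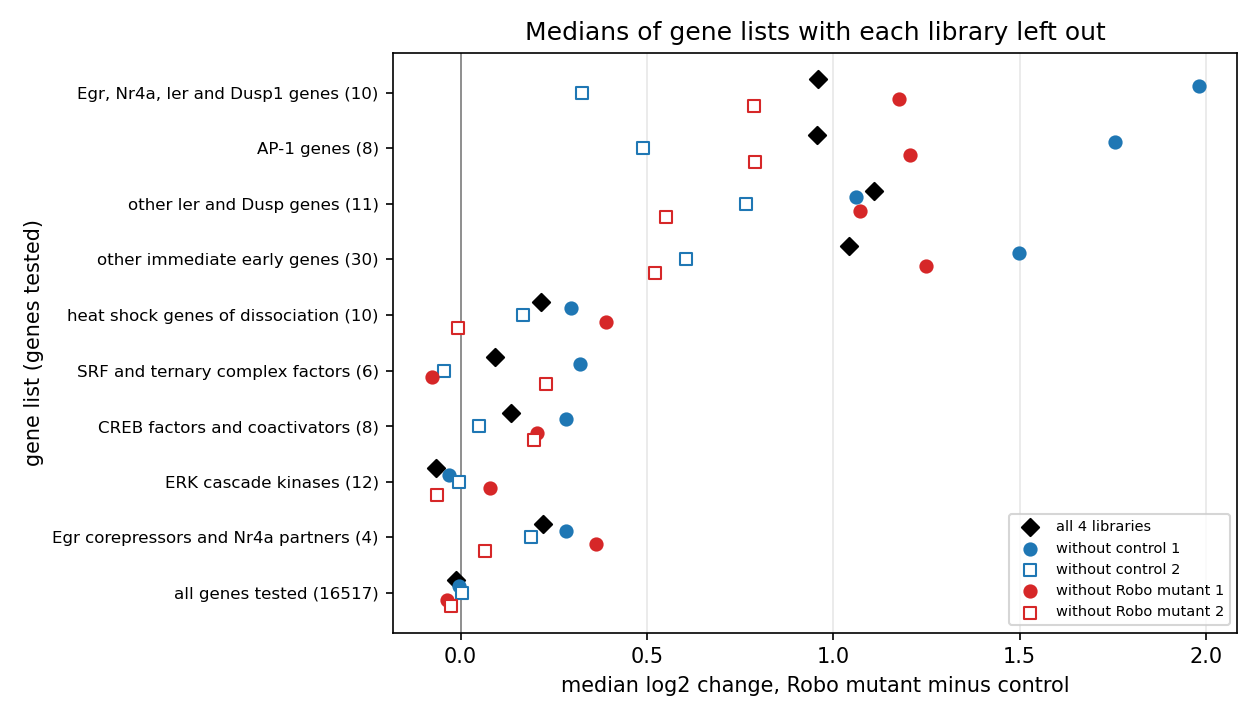
Median log2 change, Robo mutant minus control, of each gene list with all 4 libraries (black) and with each library left out. The pooled 10 genes, the AP-1 genes, the other Ier and Dusp genes and the other immediate early genes lie between 0.33 and 1.98 under these 5 fits, and the median of all genes tested lies near 0 in each.

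Outside all lists, 6 genes had the pattern most like the mean of the 10 genes, by Euclidean distance of centred log2 CPM over the 4 libraries among 8138 candidates. They were Vgf, a secretory granule peptide precursor gene, Irf1, an interferon-regulated factor gene, Tbrg4, the small GTPase gene Gem, the tomosyn family gene Stxbp5l and Cdc42ep3, at distances from 0.21 to 0.48. The 10 genes themselves lay at distances from 0.28 (Ier2) to 1.33 (Egr2) from their own mean. Vgf was at 17.5, 6.75, 18.7 and 25.03 CPM in library order, and Irf1 at 207, 67.6, 207 and 380 CPM. Likeness over 4 libraries is a description that shares the libraries' depth and cell content with the genes it was chosen by.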

How the data were processed

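Messenger RNA of mCherry-sorted β cells was measured in 4 libraries made, per the labels' protocols, with the SMART-Seq v4 kit and Nextera XT. Per the submitters' processing notes the tools included edgeR 3.16.5, RSEM 1.3.0, STAR 2.5.3a and bcl2fastq 2.20.0.422, on GRCm38. No annotation release was given in the sources used here. The table the authors deposited holds estimated counts per gene, in whole numbers (RSEM expected counts). Its name calls the values normalized, but the column totals differ, and any earlier rescaling would make counting intervals approximate. It held 0 columns of other samples.

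The genes and lists were chosen with earlier results of these data known. Genes reaching 10 counts in 2 or more libraries were tested in all 4 libraries together with edgeR 4.0.16 (TMM factors, quasi-likelihood test, two-sided) in R 4.3.3, with Benjamini-Hochberg adjustment over all genes tested and a threshold of 0.05. Standard errors of log2 changes are the change divided by the square root of the test's F. CPM uses the TMM-scaled totals of tested genes, and profiles use log2(CPM + 0.1). Fits were tested on simulated data with a smaller spread than that of these libraries, so that test does not show how they perform here. Exon lengths and positions came from GENCODE M21. Alternatives were other scaling factors, other count filters, DESeq2 1.42.0, limma 3.58.1 (pseudocount 1) and leaving out each library. An exact permutation test of 2 against 2 libraries cannot go below 0.333 and was not used. The text names the 10 genes, Robo1, Robo2, up to 4 genes of smallest p per list, the most abundant marker per cell type, and the 6 nearest genes. Markers at 0 throughout, Krt19, Rxrg and Ergic1 were named after their values were seen.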

Additional observations from a re-analysis of the deposited data

How the results depend on the processing

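Each genotype had 2 libraries. The controls differed from each other by a larger fold than the mutant libraries did in all of these genes except Egr2 and Ier3. In Egr2 and Ier3 the mutant libraries differed by the larger fold. Over the 11 alternatives (10 for Egr3, which a minimum of 50 counts removes), 106 of 109 values kept the direction and 0 passed the threshold. The exceptions were Egr3 (-0.21) and Egr4 (-0.30) without control 2 and Egr2 (-0.69) without mutant 2, each with fewer samples, and leaving out 1 library in turn gave -0.69 to 1.96 for Egr2, -0.21 to 2.11 for Egr3 and -0.30 to 2.30 for Egr4. Other scalings, filters and tools gave log2 changes from 0.44 to 2.08. Leaving out 1 library moved the median log2 change of the 10 genes between 0.33 and 1.98, the number with every mutant library above every control between 5 and 10, and the number of all genes called between 0 and 1 (Gm8797, without mutant 2, named as the only call). DESeq2 called 9 genes of the pathway lists and 151 in all, against 0 and 0 in edgeR, and the cause was not tested. No paired analysis was possible because the labels carry no replicate numbers: 1 and 2 are names given here in accession order, and no label ties a control library to a mutant one.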
